A study of Caenorhabditis elegans with 12 samples.

Results

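The lysozyme and saposin-like genes of Caenorhabditis elegans were taken as the protein-coding genes whose symbol is lys-, ilys- or spp- followed by a number and which had at least 1 count in 3 or more of the 12 libraries. The annotation holds 47 such symbols, and 45 of them met the rule (10 lys, 6 ilys and 29 spp genes) among the 46748 gene identifiers of the counts table. The 2 that did not were spp-27, which has no row in the counts analysed here, and spp-30, which was counted in only 2 libraries. The study sequenced RNA from whole hermaphrodites aged 5 days, in 4 groups of 3 libraries each. One group was the strain CF1038, which carries the deletion allele daf-16(mu86), fed bacteria labelled for RNAi of bcat-1, and its control was the same strain on the empty vector L4440. The other pair was TU3311, a strain with a sid-1 transgene that the labels describe as one for neuronal RNAi, fed bacteria labelled for RNAi of daf-7, against TU3311 on L4440. All 4 groups were thus fed RNAi bacteria, no library here comes from a strain free of both genetic changes, and the promoter of the transgene is not given in the sources used here. Whether the 3 libraries of a group come from separate cultures is not stated, so p-values measure only the spread between these libraries.

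Lysozymes split the peptidoglycan of bacterial cell walls, and saposin-like proteins (the caenopores) bind lipid membranes and can open pores in them. In the worm, which eats bacteria, both classes are best known from the intestine, where they take part in digesting food and in defence against pathogens. The lys genes encode lysozymes related to those of protists and the ilys genes encode invertebrate-type lysozymes. The forkhead factor DAF-16, which acts below the insulin receptor, the p38 kinase PMK-1 and the TGF-beta ligand DBL-1 are among the known regulators of members of these families. lys-7, lys-8 and spp-1 are textbook DAF-16 targets. bcat-1 encodes the branched-chain amino acid aminotransferase and daf-7 a TGF-beta ligand of sensory neurons.

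The libraries held 30130249 to 45343624 gene counts each, and the number of genes with 10 or more counts ran from 13542 to 16809. Neither RNAi target was lower where its RNAi was labelled. bcat-1 had 210, 166 and 222 counts-per-million (CPM, here always scaled by TMM library factors) in the libraries labelled bcat-1 RNAi, against 131, 151 and 137 CPM on vector (log2 difference 0.51 ± 0.23 SE, edgeR adjusted p = 0.212, or 0.00785 with the library pair as a block). daf-7 had 115.5, 31.4 and 136.5 CPM where its own RNAi was labelled, against 12.1, 8.38 and 6.21 CPM on vector (3.41 ± 0.46, edgeR adjusted p = 0.0556). The knockdowns are therefore called by their labels only. daf-16 itself was lower in daf-16(mu86), with 85.7, 87.5 and 77.4 CPM in daf-16(mu86) on vector against 185, 210 and 191 CPM in TU3311 on vector (log2 -1.23 ± 0.19, edgeR adjusted p = 0.00581). Libraries 8 and 7, which are replicate 1 of TU3311 on daf-7 RNAi and replicate 1 of TU3311 on vector, stood apart from the other TU3311 libraries. The bcat-1 and strain comparisons share the daf-16(mu86) vector libraries, and the daf-7 and strain comparisons share the TU3311 vector libraries.

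The genes lie on all 6 chromosomes, with 14 on IV, 11 on X, 10 on V, 5 on I, 3 on II and 2 on III. Neighbours within 10 kb of each other form 8 clusters that hold 24 of the 47 annotated genes (WBcel235 assembly). The largest cluster holds 5 genes, spp-3, spp-2, spp-6, spp-4 and spp-5, on chromosome X, 7314969 to 7320354. lys-1, lys-2 and lys-3 sit together on chromosome V, 10277904 to 10283544, and lys-4, lys-5 and lys-6 on chromosome IV, 11621429 to 11627947. ilys-3, ilys-2 and ilys-1 are neighbours on chromosome IV, 2464456 to 2471449. The remaining clusters are spp-27, spp-20, spp-26 and spp-19 on V, spp-10 with spp-8 on IV, spp-9 with spp-21 on X and spp-17 with spp-23 on I. For 5 members (lys-8, spp-1, spp-15, spp-16 and spp-19) some exonic bases are shared with a gene on the opposite strand, and the strand setting of the counting is not given, so reads of the partner cannot be told apart from theirs.

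Per kilobase of exon, 3 genes stood above the rest. lys-7 (WBGene00003096, chromosome V, 3481432 to 3482600, minus strand), a lysozyme induced by several bacterial pathogens, had the highest mean level over the 12 libraries, 3050 CPM per kilobase, with single libraries between 1020 and 9440. The caenopore gene spp-5 followed at 1430 CPM per kilobase (976 to 2620) and spp-14 at 1220 CPM per kilobase (745 to 1760). The 3 ranges overlap, and lys-7 did not lead in daf-16(mu86). Under bcat-1 RNAi the group mean of spp-14 was 1560 and that of lys-7 1420 CPM per kilobase. On daf-16(mu86) vector the mean of spp-5 was 1260 and that of lys-7 1180 CPM per kilobase. lys-1 came next at 476 CPM per kilobase, then ilys-5 at 282 (141 to 611), spp-3 at 217, spp-10 at 191, spp-17 at 185 and lys-8 at 181 CPM per kilobase. The other ilys genes were far lower, with ilys-4 at 7.16 and ilys-2 at 2.10 CPM per kilobase.

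**Figure D1:**
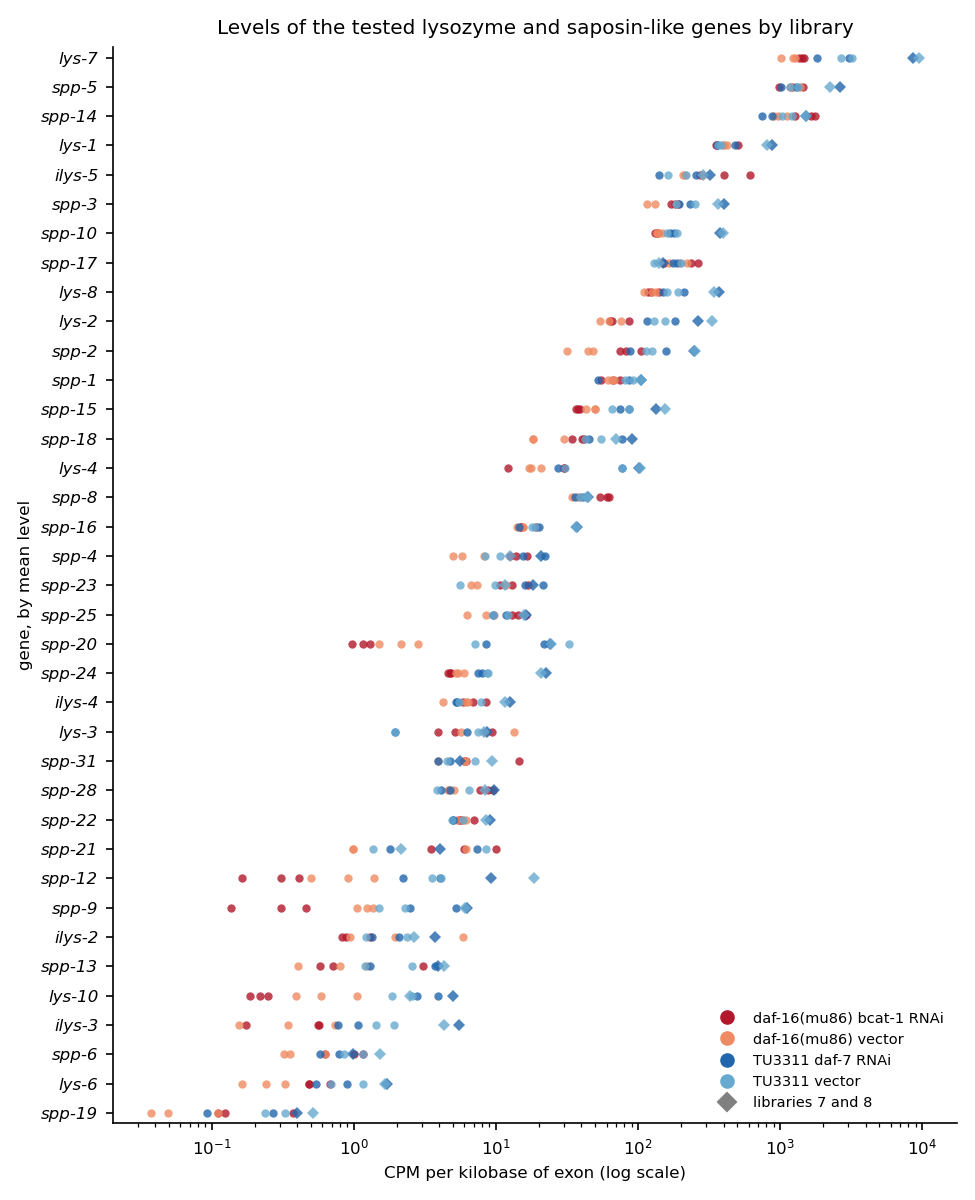
Levels of the 37 tested genes in TMM-scaled CPM per kilobase of exon (log axis), one point per library, coloured by group, with libraries 7 and 8 as diamonds. lys-7, spp-5 and spp-14 lead with means of 3050, 1430 and 1220, and the 8 genes that were not tested are not drawn.

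The levels were concentrated in a few genes of each family. lys-7 made up 61.1 to 84.9% of the summed CPM of the lys genes in a library, and ilys-5 made up 96.0 to 99.0% of the ilys sum. Among the spp genes the leading one was spp-14 in all 3 bcat-1 RNAi libraries (33.8 to 36.0% of the spp sum) and spp-5 in the other 9 libraries (29.3 to 35.9%). All 45 genes together took 0.397, 0.379 and 0.452% of the counts in the daf-16(mu86) bcat-1 RNAi libraries, and 0.283, 0.288 and 0.304% on vector. In TU3311 the share was 1.48, 0.545 and 0.362% on daf-7 RNAi and 1.51, 0.518 and 0.533% on vector. Libraries 8 and 7 hold the 1.48 and 1.51%, most of the excess being in the lys sum, which reached 9270 CPM in library 8 and 10000 CPM in library 7 while the other TU3311 libraries had 2280 to 3650 CPM.

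**Figure D2:**
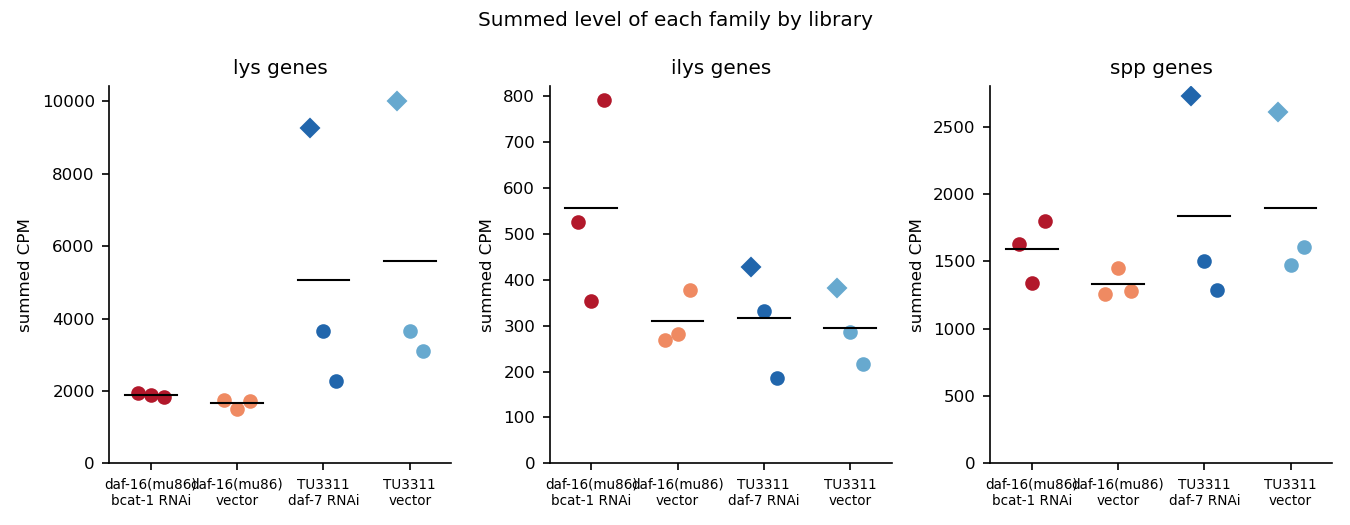
Summed TMM-scaled CPM of the lys, ilys and spp genes in each of the 12 libraries, by group, with libraries 7 and 8 as diamonds. The lys sum is 1510 to 1950 in the 6 daf-16(mu86) libraries and 2280 to 10000 in the 6 TU3311 libraries.

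Within the TU3311 groups most of these genes were highest in the libraries that stand apart. Of the 37 genes that passed the expression filter, 33 (89.2%) were highest of the 3 daf-7 RNAi libraries in library 8, against 46.9% of all 16618 genes tested. Likewise 32 (86.5%) were highest of the 3 TU3311 vector libraries in library 7, against 46.5% of all genes. The median ratio of library 8 to the mean of the other daf-7 RNAi libraries was 1.88 for these 37 genes and 1.05 for all genes. For library 7 and the other TU3311 vector libraries it was 1.74 for the 37 genes and 1.05 for all genes. The median coefficient of variation of the 37 genes was 46.4% on daf-7 RNAi and 40.4% on TU3311 vector, against 17.7% on bcat-1 RNAi and 21.1% on daf-16(mu86) vector. For all genes tested it was also higher in TU3311, at 32.4% on daf-7 RNAi and 33.1% on vector. In daf-16(mu86) the all-gene value was 13.8% on bcat-1 RNAi and 12.3% on vector. In the same libraries the summed oocyte and germline markers (8 genes, none at 0) were 2630 CPM in library 8 and 2580 CPM in library 7, and 6100 to 6840 CPM in the other TU3311 libraries. The summed intestine markers (7 of 8 matched, none at 0) were 1730 CPM in library 8 and 1540 CPM in library 7, and 1100 to 1530 CPM in the other TU3311 libraries. Singly, ges-1, ifb-2, vha-6, act-5 and asp-1 were highest of their group in libraries 7 and 8, and pept-1 and erm-1 were not. On TU3311 vector act-5 had 328 CPM in library 7 against 118 and 165 CPM, and erm-1 had 273 against 330 and 248 CPM. The part of these differences in the member levels was not tested, and in RNA from whole animals fewer cells of a type and less RNA per cell cannot be told apart.

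daf-16(mu86) was compared with TU3311, both on vector, over the 37 tested genes. 10 fell and none rose in daf-16(mu86) (edgeR quasi-likelihood test, adjusted p under 0.05 over 16618 genes), that is 27.0% of the 37 lower, where 6.5% of all genes were called lower and 0.132% higher. The 10 were 5 of the 8 lys genes tested (lys-2, lys-4, lys-6, lys-7 and lys-10) and 5 of the 25 spp genes (spp-2, spp-12, spp-15, spp-18 and spp-20), with none of the 4 ilys genes. The median log2 difference was -1.70 for the lys genes, -0.73 for the spp genes, -0.24 for the ilys genes and -0.82 for all 37, against -0.38 for all genes tested. 33 of the 37 were below 0 and 27 were below the median of all genes. The groups did not overlap for 20 of the 37 (54.1%), all of them lower in daf-16(mu86), against 30.7% of all genes without overlap and lower and 25.8% without overlap and higher. These counts describe the genes that passed the filter and not all 45.

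Among the lysozymes, lys-7 had 1120, 922 and 1160 CPM in daf-16(mu86) and 8520, 2890 and 2430 CPM in TU3311. Every TU3311 library lay above every daf-16(mu86) library, and library 7 (replicate 1 of TU3311) lay far above the other TU3311 libraries. The log2 difference was -2.11 ± 0.53 (edgeR adjusted p = 0.0393), and without libraries 7 and 8 it was -1.31 (adjusted p = 0.00329). lys-2 (WBGene00003091), the neighbour of lys-1, had 70.7, 58.0 and 50.4 CPM in daf-16(mu86) and 307, 144 and 120 CPM in TU3311. It was thus lower in all 3 mutant libraries, by -1.67 ± 0.37 on the log2 scale (edgeR adjusted p = 0.0264). lys-1 itself had 406, 383 and 379 CPM in daf-16(mu86) and 782, 367 and 351 CPM in TU3311, and the groups overlapped (log2 -0.36 ± 0.35, edgeR adjusted p = 0.392).

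The neighbours lys-4 and lys-6 on chromosome IV were both lower in daf-16(mu86). lys-4 (WBGene00003093) had 13.5, 13.9 and 16.2 CPM in daf-16(mu86) and 81.2, 60.8 and 24.2 CPM in TU3311, without overlap (log2 -1.93 ± 0.50, edgeR adjusted p = 0.0411). Its call was lost without libraries 7 and 8 (-1.54, adjusted p = 0.0836). lys-6 (WBGene00003095) was scarce, with 3, 9 and 5 counts in daf-16(mu86) and 52, 33 and 21 counts in TU3311, which is 0.115, 0.234 and 0.17 CPM against 1.17, 0.825 and 0.488 CPM. Its groups did not overlap (log2 -2.20 ± 0.51, edgeR adjusted p = 0.0291). lys-10 (WBGene00003099, chromosome IV, 8332826 to 8333518, plus strand, a single exon) had 0.269, 0.728 and 0.408 CPM in daf-16(mu86) and 1.73, 1.28 and 1.79 CPM in TU3311, again without overlap (log2 -1.74 ± 0.37, edgeR adjusted p = 0.0254).

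The saposin-like genes with the largest differences were spp-20 and spp-12. spp-20 (WBGene00005005, chromosome V, 6557615 to 6558203, minus strand) had 0.769, 1.09 and 1.43 CPM in daf-16(mu86) and 12.4, 3.63 and 16.7 CPM in TU3311, from 20, 42 and 42 counts against 551, 145 and 718 counts. All mutant libraries lay below all TU3311 libraries, by -3.31 ± 0.53 on the log2 scale (edgeR adjusted p = 0.00712). The value without libraries 7 and 8 was -3.21. spp-12 (WBGene00004997, chromosome V, 13889816 to 13890327, plus strand), which encodes a caenopore made in pharyngeal neurons, had 0.423, 0.234 and 0.645 CPM in daf-16(mu86) and 8.59, 1.65 and 1.91 CPM in TU3311. The TU3311 group was led by library 7 but did not overlap the mutant group (log2 -3.23 ± 0.71, edgeR adjusted p = 0.0264). Without libraries 7 and 8 the log2 difference was -2.05 (adjusted p = 0.012). spp-12 also had the widest range of all tested members, its highest library being 113 times its lowest. The highest was library 7, with 382 counts, and the lowest, replicate 1 of bcat-1 RNAi, rests on 3 counts.

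The other 3 called saposin-like genes were better expressed. spp-2 (WBGene00004987), in the cluster of 5 on chromosome X, had 15.5, 21.7 and 23.9 CPM in daf-16(mu86) and 125, 56.2 and 61.7 CPM in TU3311 (log2 -1.99 ± 0.39, edgeR adjusted p = 0.0177). spp-18 had 8.54, 14.1 and 8.49 CPM in daf-16(mu86) and 32.7, 19.7 and 25.6 CPM in TU3311 (log2 -1.32 ± 0.30, edgeR adjusted p = 0.0291). spp-15, which shares exonic bases with an opposite-strand gene, had 24.5, 28.0 and 28.0 CPM in daf-16(mu86) and 88.5, 48.8 and 36.9 CPM in TU3311 (log2 -1.11 ± 0.31, edgeR adjusted p = 0.0469). In none of the 3 did the groups overlap. Without libraries 7 and 8 the log2 difference of spp-15 was smaller, -0.67, and still past the threshold (edgeR adjusted p = 0.0124).

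**Figure D3:**
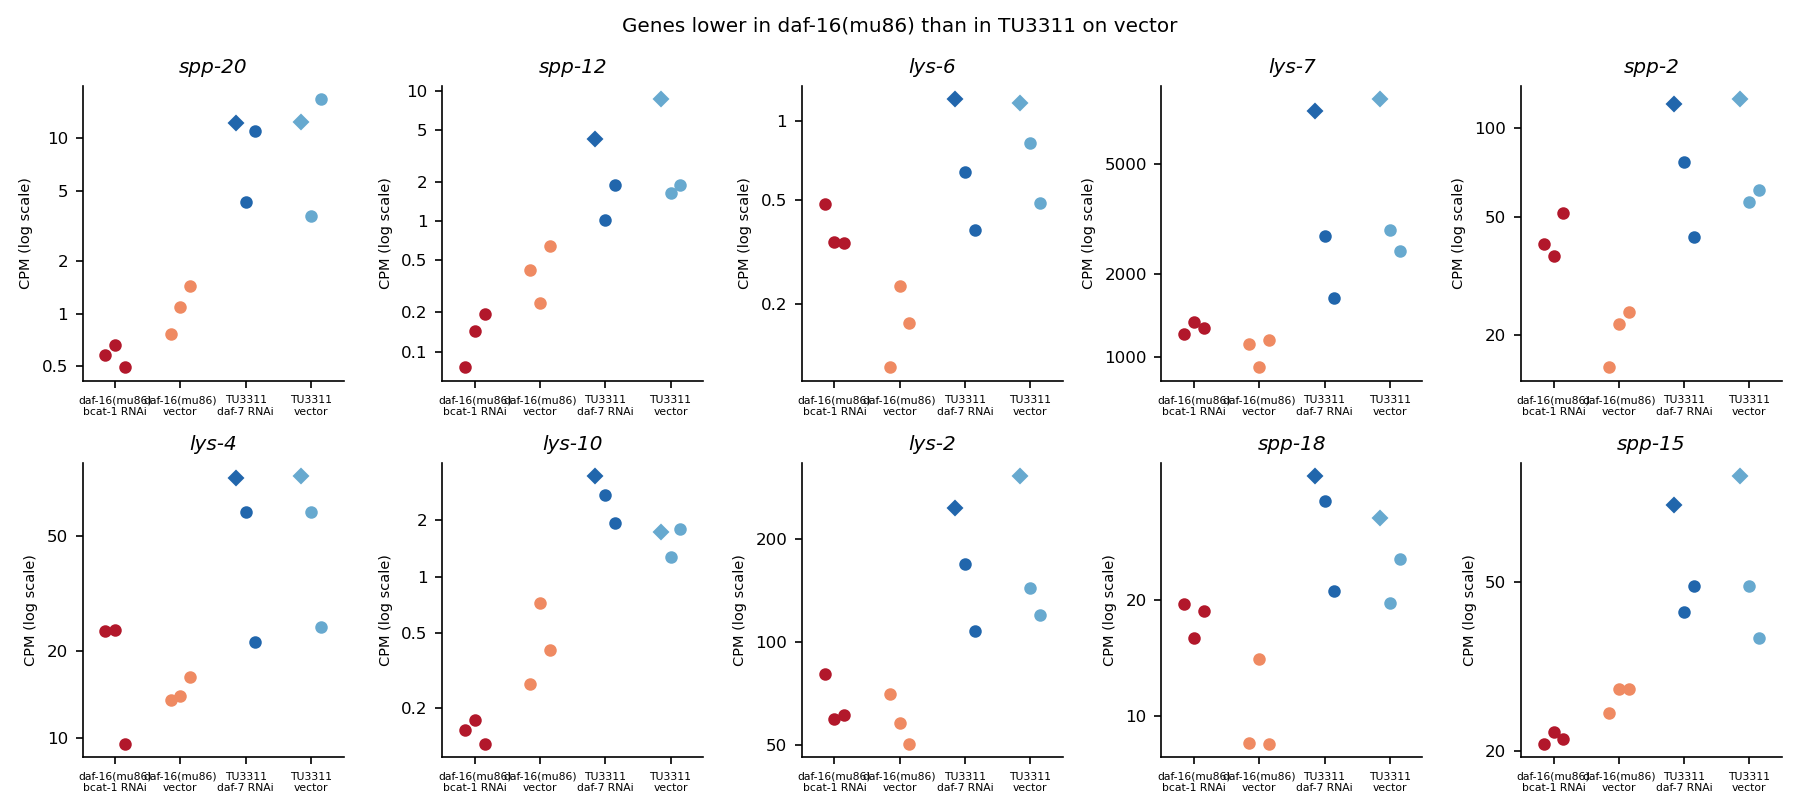
TMM-scaled CPM (log axes) of the 10 genes called lower in daf-16(mu86), one panel per gene, one point per library in the 4 groups, with libraries 7 and 8 as diamonds. On vector every daf-16(mu86) point lies below every TU3311 point in all 10 panels.

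Of the textbook DAF-16 targets besides lys-7, neither passed the test. lys-8 had 129, 121 and 108 CPM in daf-16(mu86) and 335, 184 and 156 CPM in TU3311, without overlap (log2 -0.91 ± 0.33, edgeR adjusted p = 0.0806), and it did pass without libraries 7 and 8 (-0.50, adjusted p = 0.0302). spp-1 had 35.3, 34.4 and 32.0 CPM in daf-16(mu86) and 55.1, 48.0 and 42.3 CPM in TU3311, also without overlap (log2 -0.52 ± 0.25, edgeR adjusted p = 0.122). Both genes share exonic bases with an opposite-strand gene. The largest positive values among genes averaging at least 2 CPM belonged to lys-3, spp-17 and ilys-5, and none passed. lys-3 had 6.39, 9.36 and 15.1 CPM in daf-16(mu86) and 9.24, 2.18 and 8.44 CPM in TU3311 (log2 0.63 ± 0.57). spp-17 had 71.6, 80.7 and 59.9 CPM in daf-16(mu86) and 51.0, 47.5 and 73.8 CPM in TU3311 (0.30 ± 0.25). ilys-5, the dominant invertebrate-type lysozyme, had 265, 275 and 370 CPM in daf-16(mu86) and 370, 281 and 207 CPM in TU3311 (0.08 ± 0.35), and the groups of all 3 genes overlapped. ilys-3, known for activity against Gram-positive bacteria, had 0.0769, 0.364 and 0.17 CPM in daf-16(mu86) and 2.11, 0.70 and 0.954 CPM in TU3311, without overlap (log2 -2.54 ± 0.78, edgeR adjusted p = 0.0606, or 0.0237 without libraries 7 and 8).

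The number called lower depended on single libraries. It was 14 without libraries 7 and 8 (with 15.7% of all genes called lower and 15.8% higher), 2 without TU3311 vector replicate 1 alone, 2 without daf-16(mu86) vector replicate 2 and 0 without daf-16(mu86) vector replicate 1 or 3, and the count over all genes, 1081 lower with all libraries, was 27 to 241 in these last 4 fits. A prefix in the library titles was shared by all libraries of a strain and differed between the strains, and its meaning is not stated. Strain, transgene, whatever this prefix stands for and anything else that differs between the 2 sets of libraries cannot be told apart. With DESeq2 the all-gene split was 2797 higher and 1522 lower in place of 22 and 1081, and 11 members were called lower. A fit of only the 6 vector libraries called 10 members lower (3.32% of its genes, and 0.0907% higher). Several marker sums differed between the same libraries, and their part in these results was not tested. The body muscle markers (5 genes) summed to 622, 578 and 520 CPM in daf-16(mu86) and 1700, 1210 and 967 CPM in TU3311. The pharynx markers (8 genes) summed to 76.1, 107 and 82.8 CPM in daf-16(mu86) and 208, 122.2 and 135 CPM in TU3311, and the oocyte and germline markers to 10900, 10000 and 8790 CPM against 2580, 6770 and 6100 CPM. The intestine markers summed to 1400, 1530 and 1370 CPM in daf-16(mu86) and 1540, 1100 and 1110 CPM in TU3311, with overlap. Of the 7 intestine markers 1 was called lower by edgeR, ges-1, and 0 higher, and their median log2 difference was 0.25. ges-1 had 19.9, 17.5 and 14.5 CPM in daf-16(mu86) and 85.6, 44.2 and 32.9 CPM in TU3311.

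Under bcat-1 RNAi in daf-16(mu86), 1 of the 37 tested genes rose, spp-4, and 1 fell, lys-10. That is 2.7% in each direction, where 4.18% of all genes were called higher and 0.144% lower. The median log2 difference of the 37 was 0.26, against 0.16 for all genes. By family it was 0.64 for the 25 spp genes, 0.19 for the 4 ilys genes and 0.11 for the 8 lys genes. Of the 25 spp genes, 15 were above the all-gene median and 10 below it. By DESeq2 the spp median was 0.10 over 23 genes, against -0.12 for all genes. With RLE library factors the medians were 0.06 for the 37 genes, 0.44 for the spp genes, -0.11 for the lys genes and -0.04 for all genes, so that the sign for the lys genes rests on the scaling. The groups did not overlap for 9 genes higher under bcat-1 RNAi (24.3%) and 6 lower (16.2%), against 29.5% and 25.1% of all genes.

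spp-4 (WBGene00004989, chromosome X, 7318239 to 7318756, minus strand) had 5.21, 5.75 and 6.92 CPM under bcat-1 RNAi and 2.08, 3.46 and 2.41 CPM on vector. All bcat-1 RNAi libraries lay above all vector libraries, the group means being 5.96 ± 0.872 and 2.65 ± 0.72 CPM (SD, n = 3 each). The log2 difference was 1.17 ± 0.28 (edgeR adjusted p = 0.0329), but it missed the threshold in each of the 6 fits that left out 1 of these libraries. lys-10 was near the limit of counting in these groups, with 6, 6 and 6 counts under bcat-1 RNAi and 7, 28 and 12 counts on vector. That is 0.152, 0.173 and 0.129 CPM against 0.269, 0.728 and 0.408 CPM, without overlap (log2 -1.65 ± 0.43, edgeR adjusted p = 0.0457), and this call too was lost in all 6 such fits.

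Neighbouring library numbers were also fitted as pairs, a pairing taken from these data (r = 0.158 to 0.398 between their deviations in daf-16(mu86)). This raised the counts to 10 members higher and 6 lower under bcat-1 RNAi, while 25.7% of all genes were called higher and 18.5% lower. Those higher were spp-2, spp-4, spp-8, spp-14, spp-18, spp-25, spp-28, spp-31, lys-6 and ilys-5. Those lower were lys-3, lys-10, ilys-2, spp-9, spp-12 and spp-20. Without libraries 7 and 8, which are not in this comparison but enter its estimate of spread, 7 were called higher and 3 lower (20.9% and 14.8% of all genes). A fit of only the 6 libraries compared called 9 higher and 2 lower (24% and 16.5% of all genes).

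Several saposin-like genes missed the threshold with all 12 libraries and no pairing but passed in other fits. spp-2, spp-8, spp-14, spp-18, spp-25 and spp-28 were called higher in the paired fit, without libraries 7 and 8 and with only the 6 libraries compared. spp-8 was also called with upper-quartile factors and with library totals. spp-2 had 40.6, 37.02 and 51.5 CPM under bcat-1 RNAi and 15.5, 21.7 and 23.9 CPM on vector (log2 1.08 ± 0.38, edgeR adjusted p = 0.119, paired 0.00189). spp-8 had 81.4, 69.8 and 78.0 CPM under bcat-1 RNAi and 44.5, 51.1 and 49.3 CPM on vector (0.66 ± 0.18, edgeR adjusted p = 0.0579, paired 0.00166). spp-14 had 588, 455 and 627 CPM under bcat-1 RNAi and 325, 399 and 346 CPM on vector (0.64 ± 0.28, edgeR adjusted p = 0.195, paired 0.0112). In all 3 genes every bcat-1 RNAi library was above every vector library. spp-28 had 3.52, 3.14 and 3.87 CPM under bcat-1 RNAi and 1.85, 1.87 and 2.04 CPM on vector, also without overlap (0.87 ± 0.35, edgeR adjusted p = 0.174, paired 0.00911). ilys-5 had 521, 348 and 784 CPM under bcat-1 RNAi and 265, 275 and 370 CPM on vector, where the groups overlapped but each pair of libraries moved up (0.86 ± 0.35, edgeR adjusted p = 0.172, paired 0.00268).

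The genes that were lower in the paired fit were mostly scarce. lys-3 had 4.38, 5.75 and 10.5 CPM under bcat-1 RNAi and 6.39, 9.36 and 15.1 CPM on vector, so that the groups overlapped and each pair moved down (log2 -0.58 ± 0.57, edgeR adjusted p = 0.539, paired 0.00722). spp-20 had 0.582, 0.662 and 0.494 CPM under bcat-1 RNAi and 0.769, 1.09 and 1.43 CPM on vector, without overlap (-0.93 ± 0.54, edgeR adjusted p = 0.325, paired 0.0268). spp-12 had 3, 5 and 9 counts under bcat-1 RNAi and 11, 9 and 19 counts on vector (-1.60 ± 0.82, edgeR adjusted p = 0.271, paired 0.0144), and its CPM values did not overlap. spp-9 had 2, 4 and 8 counts under bcat-1 RNAi and 12, 15 and 15 counts on vector (-1.95 ± 0.63, edgeR adjusted p = 0.0953, paired 0.0185). spp-15, the third largest fall among genes averaging at least 2 CPM, had 20.8, 22.2 and 21.3 CPM under bcat-1 RNAi and 24.5, 28.0 and 28.0 CPM on vector, without overlap, and passed neither fit (-0.32 ± 0.30, edgeR adjusted p = 0.518, paired 0.0737).

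lys-7 stood at 1220, 1340 and 1280 CPM under bcat-1 RNAi and 1120, 922 and 1160 CPM on vector, every bcat-1 RNAi library being the higher (log2 0.26 ± 0.51, edgeR adjusted p = 0.758, paired 0.0983). With only the 6 libraries compared it was called higher (0.30 ± 0.10, edgeR adjusted p = 0.0379), and so it was with these and the block. Beside these values, the oocyte and germline markers summed to 6670, 5400 and 6050 CPM under bcat-1 RNAi and 10900, 10000 and 8790 CPM on vector, and the pharynx markers to 160, 224 and 154 CPM against 76.1, 107 and 82.8 CPM. The intestine markers summed to 1480, 1450 and 1220 CPM under bcat-1 RNAi and 1400, 1530 and 1370 CPM on vector. Neither the part of the germline markers nor that of the pharynx markers in the member values was tested. DESeq2 split its all-gene calls 572 higher and 228 lower, where edgeR called 694 and 24, and among the members it called spp-4 higher and lys-10, spp-9 and ilys-2 lower.

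**Figure D4:**
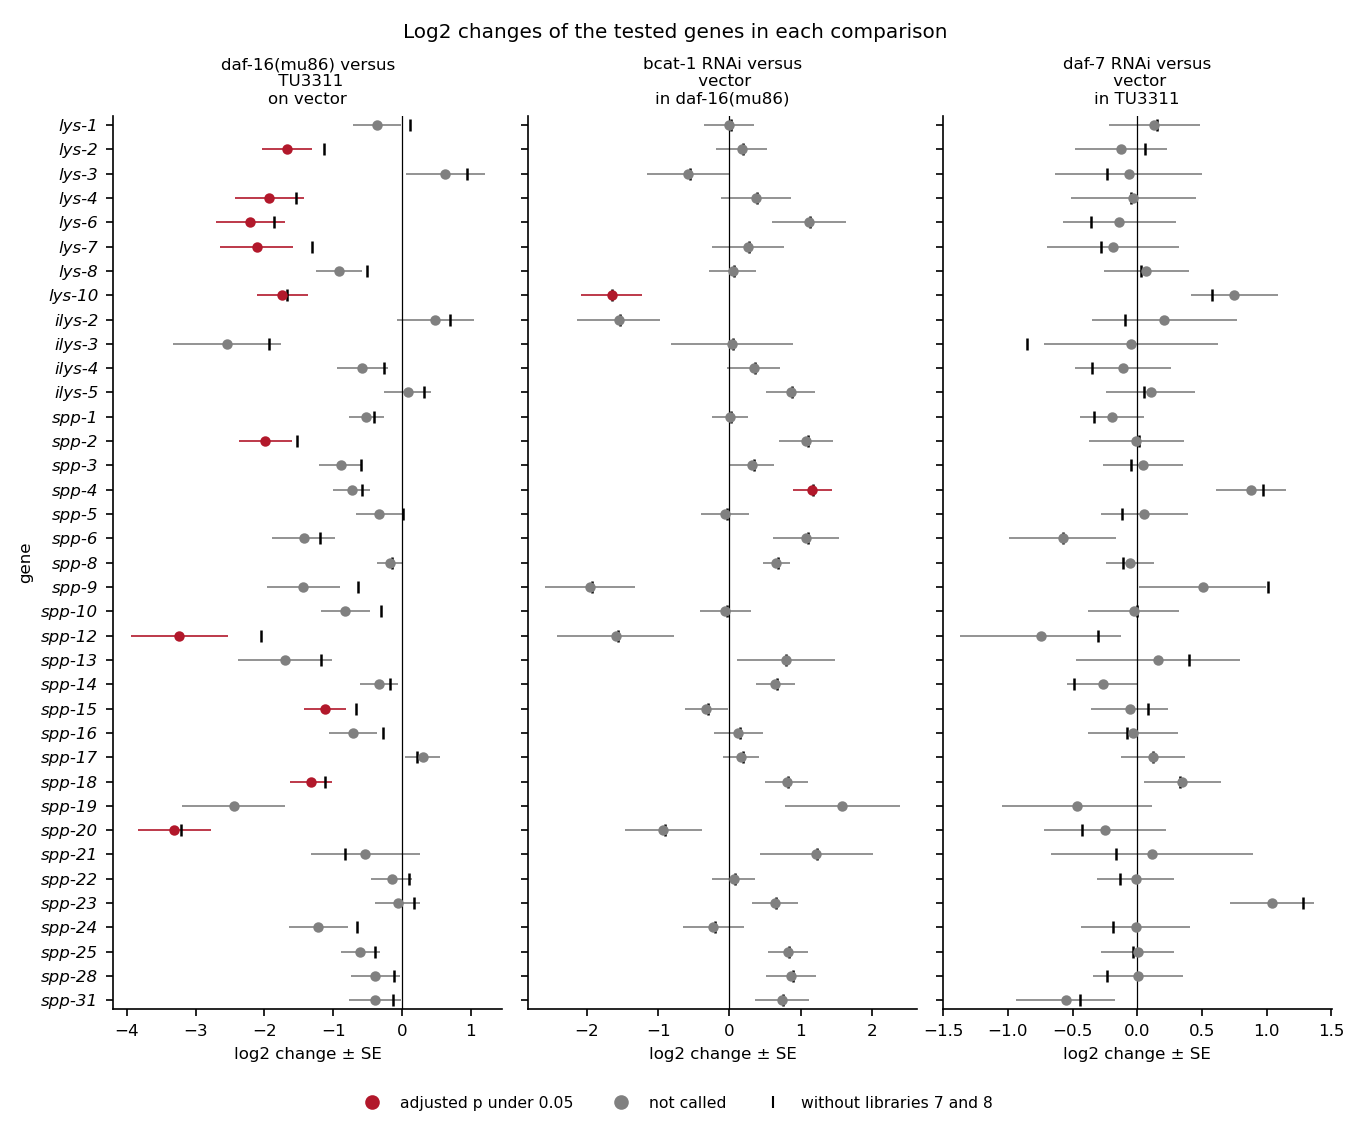
log2 differences with standard errors (edgeR) of the 37 tested genes in the bcat-1, daf-7 and strain comparisons, red where the adjusted p is under 0.05, with a black tick at the value without libraries 7 and 8. Red points number 2 for bcat-1 RNAi, 0 for daf-7 RNAi and 10 for daf-16(mu86) against TU3311 on vector.

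Under daf-7 RNAi in TU3311 no member passed the test in either direction, as was true of all genes (0 called higher and 0 lower, so 0% of 16618, by edgeR, or 0.00605% lower without libraries 7 and 8, with 77 genes at an unadjusted p under 0.05, while DESeq2 called 1 gene higher and 2 lower and no member). The median log2 difference of the 37 was -0.01, against 0.01 for all genes. 3 members had an unadjusted p under 0.05, and these 3 were also the ones whose groups did not overlap (8.11% of the 37 higher, against 0.65% of all genes, and 0% lower, against 0.644%). spp-23 had 5.70, 6.82 and 5.05 CPM under daf-7 RNAi and 3.67, 1.75 and 3.09 CPM on vector (log2 1.04 ± 0.32, edgeR unadjusted p = 0.00626). spp-4 had 8.67, 9.29 and 6.46 CPM under daf-7 RNAi and 5.29, 4.48 and 3.49 CPM on vector (0.88 ± 0.27, edgeR unadjusted p = 0.00588). lys-10 had 3.44, 2.71 and 1.92 CPM under daf-7 RNAi and 1.73, 1.28 and 1.79 CPM on vector (0.75 ± 0.34, edgeR unadjusted p = 0.0442). The adjusted p was 1 for each of the 3, so none of these differences holds against the number of genes tested.

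The other genes named under daf-7 RNAi did not pass the test either. spp-18 had 42.0, 36.2 and 21.1 CPM under daf-7 RNAi and 32.7, 19.7 and 25.6 CPM on vector (log2 0.35 ± 0.30). On the negative side stood spp-31, with 3.10, 2.18 and 2.65 CPM under daf-7 RNAi and 5.17, 2.53 and 3.95 CPM on vector (-0.55 ± 0.38), and spp-14, with 544, 310 and 265 CPM against 546, 365 and 436 CPM (-0.27 ± 0.27). spp-20 had 12.2, 4.32 and 11.0 CPM under daf-7 RNAi and 12.4, 3.63 and 16.7 CPM on vector (-0.25 ± 0.47). In all 4 genes the groups overlapped. lys-7 had 7730, 2750 and 1640 CPM under daf-7 RNAi and 8520, 2890 and 2430 CPM on vector, each daf-7 RNAi library lying below the vector library of neighbouring number (-0.19 ± 0.51, edgeR adjusted p = 1).

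The difference between the bcat-1 and the daf-7 RNAi responses was tested in the same fit. No member passed in either direction by edgeR, where 0.102% of all genes were called higher and 0.00602% lower. At an unadjusted p under 0.05 (edgeR) were 7 of the 37 members and 2047 of all 16618 genes. DESeq2 called lys-10 lower, with 23 of its 15740 genes lower. With the library pair as a block 9 members were called with the higher difference and 2 with the lower, against 15% and 11.2% of all genes. The 9 were lys-7, ilys-5, spp-2, spp-6, spp-8, spp-14, spp-25, spp-28 and spp-31, and the 2 were spp-9 and lys-10. Without libraries 7 and 8 the called genes were spp-8 and spp-14 on the higher side and spp-9 and lys-10 on the lower (7.65% and 5.59% of all genes).

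Among them spp-8 differed by 0.72 ± 0.26 on the log2 scale (edgeR adjusted p = 0.275, paired 0.0115), from 0.66 under bcat-1 RNAi and -0.06 under daf-7 RNAi. spp-14 differed by 0.91 ± 0.39 (edgeR adjusted p = 0.362, paired 0.017) and spp-2 by 1.08 ± 0.53 (edgeR adjusted p = 0.424, paired 0.0141). spp-31 had the largest positive difference among genes averaging at least 2 CPM, 1.29 ± 0.54 (edgeR adjusted p = 0.351, paired 0.0293). lys-10, with opposite signs under the 2 feedings, differed by -2.40 ± 0.55 (edgeR adjusted p = 0.0936, paired 0.0112). spp-9 differed by -2.46 ± 0.80 (edgeR adjusted p = 0.227, paired 0.0214). The largest negative values among genes averaging at least 2 CPM were -0.68 ± 0.71 for spp-20, -0.51 ± 0.81 for lys-3 and -0.40 ± 0.46 for spp-23, and none passed either fit. Strain and RNAi target vary together in this design, so they cannot be told apart in these differences.

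Genes of the same cluster did not keep 1 ratio across the groups. The ratios below are of raw counts within a library, so library scaling does not enter, and the pairs were chosen after their values were seen and carry no test. lys-2 to lys-1 stood at 0.167, 0.175 and 0.178 under bcat-1 RNAi and at 0.174, 0.151 and 0.133 on daf-16(mu86) vector. In TU3311 it stood at 0.295, 0.368 and 0.312 under daf-7 RNAi and at 0.393, 0.391 and 0.341 on vector, so every TU3311 library was above every daf-16(mu86) library. Here libraries 7 and 8, at 0.393 and 0.295, lay just outside the range of the other TU3311 libraries (0.312 to 0.391), although both genes were high in them. lys-7 to lys-1, which are not neighbours, stood at 2.52, 3.94 and 3.71 under bcat-1 RNAi, 2.76, 2.41 and 3.05 on daf-16(mu86) vector, 9.22, 6.01 and 4.76 under daf-7 RNAi and 10.9, 7.86 and 6.91 on TU3311 vector, again with no overlap between the strains.

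Within the cluster on chromosome X, spp-2 to spp-5 stood at 0.0904, 0.103 and 0.0956 under bcat-1 RNAi and at 0.0344, 0.0425 and 0.0546 on vector. In TU3311 the ratio was 0.125, 0.16 and 0.113 under daf-7 RNAi and 0.149, 0.129 and 0.125 on vector. The 3 daf-16(mu86) vector libraries were the lowest of the 12, and the bcat-1 RNAi libraries lay between them and TU3311. spp-5 itself had 449, 361 and 538 CPM under bcat-1 RNAi and 452, 511 and 438 CPM on vector, with overlap. spp-4 to spp-5 stood at 0.0116, 0.0159 and 0.0129 under bcat-1 RNAi against 0.00459, 0.00677 and 0.00551 on vector, without overlap. spp-8 to spp-10 on chromosome IV stood at 0.397, 0.352 and 0.369 under bcat-1 RNAi against 0.216, 0.247 and 0.219 on vector, while spp-10 had 205, 198 and 211 CPM against 207, 207 and 225 CPM.

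**Figure D5:**
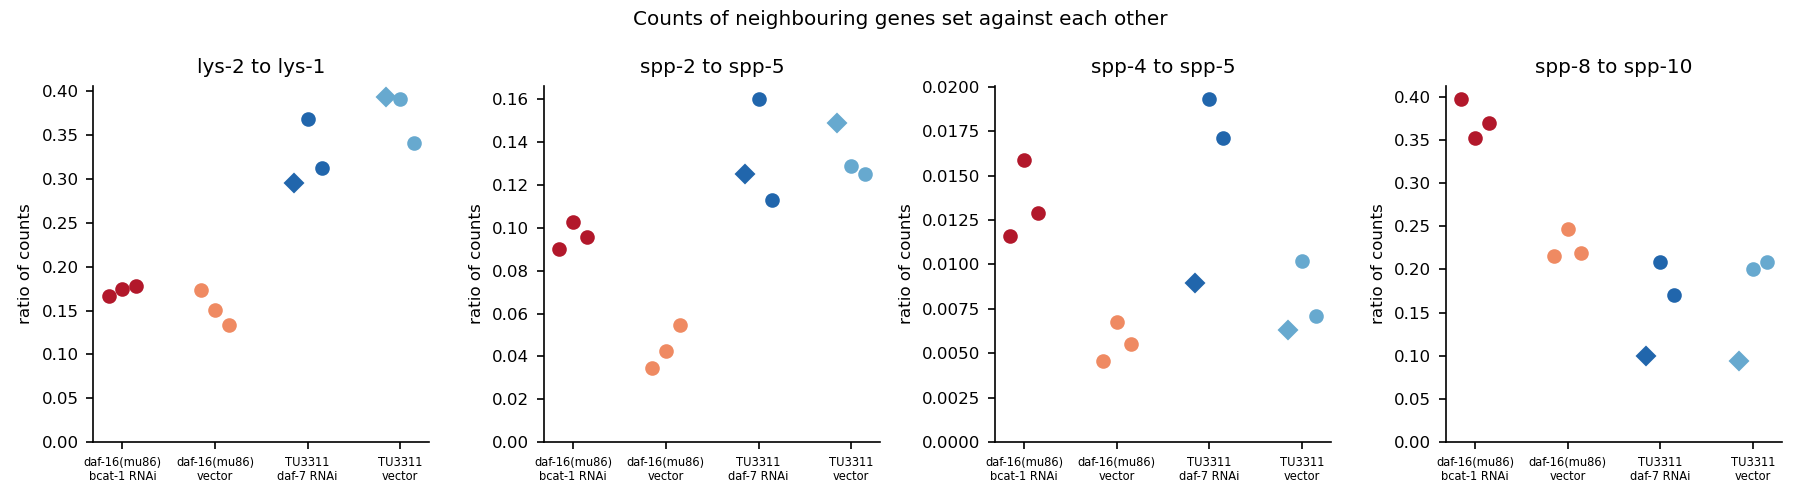
Ratios of raw counts in each library for lys-2 to lys-1, spp-2 to spp-5, spp-4 to spp-5 and spp-8 to spp-10, by group. Libraries 7 and 8 are diamonds, and lys-7 to lys-1 is not drawn. lys-2 to lys-1 separates the TU3311 libraries (0.295 to 0.393) from the daf-16(mu86) libraries (0.133 to 0.178), and spp-8 to spp-10 separates bcat-1 RNAi (0.352 to 0.397) from its vector (0.216 to 0.247).

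Genes that regulate these families were counted by list, beside the all-gene shares of 6.5% lower between the strains and 4.18% higher under bcat-1 RNAi, or 25.7% higher and 18.5% lower under bcat-1 RNAi with the library pair as a block. Of 6 insulin and FOXO regulators, 2 fell in daf-16(mu86) on vector, daf-16 itself and akt-2, a kinase that acts upstream of it. akt-2 had 10.9, 13.1 and 16.8 CPM in daf-16(mu86) and 46.9, 23.8 and 23.3 CPM in TU3311, without overlap (log2 -1.20 ± 0.32, edgeR adjusted p = 0.0425). The list's median log2 difference there was 0.40, opposite in sign to its 2 called genes, and none of the 6 was called under bcat-1 RNAi (median -0.42), where daf-18, daf-2 and akt-1 had the smallest p and 3 fell with the library pair as a block.

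Of 6 p38 regulators, 1 rose under bcat-1 RNAi and 1 fell in daf-16(mu86) on vector, and both were tir-1, which encodes the TIR adaptor at the head of the pathway. tir-1 had 130.9, 142.3 and 121.4 CPM under bcat-1 RNAi and 54.2, 47.2 and 81.0 CPM on vector (log2 1.11 ± 0.23, edgeR adjusted p = 0.0170). In TU3311 on vector it had 109.8, 118.8 and 91.3 CPM, above all 3 daf-16(mu86) vector libraries (-0.81 ± 0.23, edgeR adjusted p = 0.0498). Both comparisons share those vector libraries. With the block 2 of the 6 rose and 1 fell under bcat-1 RNAi. The list medians were 0.13 under bcat-1 RNAi and -0.38 between the strains, equal to or near the 0.16 and -0.38 of all genes.

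Of 8 DBL-1 regulators, 1 fell in daf-16(mu86) on vector, the ligand gene dbl-1, with 3.81, 4.03 and 3.67 CPM in daf-16(mu86) and 9.11, 6.65 and 6.49 CPM in TU3311 (log2 -0.95 ± 0.24, edgeR adjusted p = 0.0376). Of 10 intestinal and other immune regulators, 1 fell there, sta-2, a STAT-like factor of epidermal immunity, with 5.73, 4.21 and 5.43 CPM in daf-16(mu86) and 13.2, 9.00 and 7.75 CPM in TU3311 (-0.96 ± 0.27, edgeR adjusted p = 0.0493). The groups of neither gene overlapped. The medians of these lists between the strains were -0.44 and -0.52. Under bcat-1 RNAi neither list had a call, and with the library pair as a block 4 rose and 1 fell among the DBL-1 regulators and 3 rose and 2 fell among the immune regulators, where 25.7% of all genes rose and 18.5% fell. The smallest p of the latter list under bcat-1 RNAi was that of zip-2, a bZIP factor of the intestinal immune response, with 342, 467 and 385 CPM under bcat-1 RNAi and 184, 232 and 244 CPM on vector (0.86 ± 0.26, edgeR adjusted p = 0.0817, paired 5.128e-04).

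Of 13 genes of the abf and thn families of antimicrobial proteins, 11 were in the counts and 7 were tested. abf-2, which encodes a defensin-like antibacterial factor, fell in daf-16(mu86), with 6.39, 6.84 and 6.79 CPM against 72.0, 34.1 and 38.03 CPM in TU3311 (log2 -2.85 ± 0.32, edgeR adjusted p = 6.252e-04). The 2 groups lay far apart, and the value without libraries 7 and 8 was -2.43 (adjusted p = 1.915e-05). None of the 7 was called under bcat-1 RNAi, and 4 rose with the library pair as a block. No gene of these 5 lists was called under daf-7 RNAi.

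8 members failed the expression filter and were not tested. lys-5, lys-9, ilys-1, ilys-6, spp-7, spp-11, spp-26 and spp-29 had 0 to 13 counts in a library. spp-26 had no count in the daf-16(mu86) vector libraries, which allows a level of up to 0.0319 CPM (3 counts over the group, counting error only), and spp-29 had none in either daf-16(mu86) group, which allows up to 0.0248 CPM under bcat-1 RNAi and 0.0319 CPM on vector. In TU3311, spp-29 had 1, 0 and 0 counts under daf-7 RNAi and 3, 3 and 1 counts on vector. lys-5 had 9, 9 and 5 counts under bcat-1 RNAi and 1, 3 and 3 counts on vector. Among the tested genes 5 averaged less than 1 CPM over the 12 libraries, and the lowest per kilobase was spp-19 at 0.22 CPM per kilobase. The steadiest member over the 12 libraries was spp-8, whose highest library was 1.83 times its lowest.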

How the data were processed

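Per the labels' protocols, libraries of whole-animal RNA from 12 samples were made with Illumina's TruSeq v2 kit. The WBcel235 build and the tools featureCounts 1.4.6-p4, STAR 2.4.1d and bcl2fastq 1.8.4 are named in the submitters' processing notes. The strand setting, the annotation release and the treatment of multi-mapped reads are not given in the sources used here. The authors deposited raw read counts per gene, and these counts were used. Deposited RPKM values were not used.

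Genes were kept by edgeR's expression filter (16618 genes), scaled by TMM and tested with edgeR 4.0.16 (quasi-likelihood F test, limma 3.58.1, R 4.3.3) in 1 fit of 4 groups with 8 residual degrees of freedom. P-values are two-sided, and Benjamini-Hochberg adjustment was over all genes tested at a threshold of 0.05. Standard errors are the log2 difference divided by the root of F. The fit was also run on simulated counts with the same spread for every gene and independent libraries. That setting lacks the pairing and the libraries that stand apart here, so it cannot show how the fit behaves with them. Levels between genes are per kilobase of exon from the WBcel235 annotation.

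The members and lists were chosen with earlier results of these data known. Genes were named by a rule: members called in a comparison, the 3 largest rises and falls among those averaging at least 2 CPM, the 3 with the smallest p in each direction with the block, the 3 highest per kilobase in each family, members that failed the filter, and list genes called or, where none was, up to 3 with the smallest p. lys-1, lys-8, spp-1, spp-5, spp-10, ilys-3, lys-7 outside the strain comparison and the untested genes described singly were added after their values were seen. So were the values of spp-14, ilys-5 and spp-9 under bcat-1 RNAi and of lys-10 under daf-7 RNAi, which the rule did not name there.

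Deviations from the group means correlated between neighbouring library numbers (r = 0.398, 0.284 and 0.158 in daf-16(mu86), 0.892, 0.777 and 0.504 in TU3311, over 16618 genes), so these were taken as pairs. No label states this pairing, and no other pairing was compared. The block leaves 4 residual degrees of freedom, and the strain comparison has no blocked value. Alternatives were RLE, upper-quartile and total-count scaling, no expression filter, DESeq2 1.42.0, the block, only the 6 libraries compared, leaving out libraries 7 and 8, and leaving out each library. No sequence tables were used.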

Additional observations from a re-analysis of the deposited data

Results flagged for a closer look

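lys-10 differed in its response between the feedings. It was lower without overlap under bcat-1 RNAi (0.152, 0.173 and 0.129 CPM, against 0.269, 0.728 and 0.408 CPM on vector) and higher without overlap under daf-7 RNAi (3.44, 2.71 and 1.92 CPM, against 1.73, 1.28 and 1.79 CPM on vector), so that all 6 RNAi libraries moved away from their vector groups, in opposite directions in the 2 strains. The test of the difference gave a log2 value of -2.40 ± 0.55 (edgeR adjusted p = 0.0936), which misses the threshold. It was past the threshold in 3 of the 19 alternatives, and the adjusted p over them ran from 0.0112 to 0.278. The daf-16(mu86) values rest on 6 counts in each bcat-1 RNAi library and 7, 28 and 12 counts on vector.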

How the results depend on the processing

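The count of members called lower in daf-16(mu86) against TU3311 on vector was 10, and it was 4 with RLE factors (spp-20, spp-12, spp-2 and lys-10), 16 with library totals and 0 to 10 when each library was left out. Of all 16618 genes 1081 were called lower, 242 with RLE factors and 2858 with library totals. The all-gene count was 27 to 1230 when each library was left out. The 1 member higher under bcat-1 RNAi became 0 with RLE factors, 2 with upper-quartile factors, 2 with library totals, 10 with the replicate block, 9 with only the 6 libraries compared, 10 with these and the block, 7 without libraries 7 and 8, and 0 in every fit that left out 1 library. All genes called higher numbered 694, and 297 with RLE factors, 685 with upper-quartile factors and 1136 with library totals. They numbered 4275 with the replicate block, 3628 with only the 6 libraries, 3848 with these and the block, and 3455 without libraries 7 and 8. With 1 library left out they numbered 42 to 319. The 1 member lower became 0 with upper-quartile factors, library totals or no expression filter, 3 with DESeq2, 6 with the replicate block, 2 with only the 6 libraries with or without the block, 3 without libraries 7 and 8, and 0 in each fit without 1 library. All genes called lower numbered 24, and 15 with upper-quartile factors, 14 with library totals, 15 with no expression filter and 228 with DESeq2. They numbered 3081 with the replicate block, 2488 with only the 6 libraries, 2559 with these and the block, and 2441 without libraries 7 and 8. With 1 library left out they numbered 3 to 8. The difference between the responses, 0 and 0 members, gave 9 higher and 2 lower with the replicate block, 2 and 2 without libraries 7 and 8, 1 lower with DESeq2 and 1 lower without TU3311 vector replicate 1. All genes gave 17 higher and 1 lower there, 2490 and 1859 with the block, and 1264 and 923 without libraries 7 and 8. DESeq2 had 23 genes lower, and the fit without TU3311 vector replicate 1 had 14 lower. Under daf-7 RNAi the counts were 0 and 0 in every alternative run. Signs turned for ilys-5 between the strains (0.08, against -0.26 with upper-quartile factors, -0.20 with library totals and -0.17 to 0.31 when each library was left out, negative without daf-16(mu86) vector replicate 3 and, at -0.01, without TU3311 vector replicate 3) and for spp-20 under daf-7 RNAi (-0.25, against 0.09 without daf-7 RNAi replicate 2 and 0.21 without TU3311 vector replicate 3), and neither gene was called there. Over all single-gene values, 461 kept their direction and side of the threshold, 62 lost and 32 gained the call and 6 turned. The all-gene median between the strains was -0.38 with TMM, -0.16 with RLE, -0.71 with upper-quartile factors and -0.66 with library totals. The cause of these changes was not tested. Members with under 10 counts in a library are limited by counting error.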
